A study of Homo sapiens with 6 samples.

Results

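The genes of chromosome 20 were followed in the order in which the expression table lists them, from DEFB125 at the end of the short arm to PCMTD2 at the end of the long arm. That stretch of the table holds 1354 rows, of which 672 carry no value in any library. A gene was kept when it had a value in at least 2 vector control (VC) and 2 CNTNAP4 knockout (KO) libraries, which left 516 genes of the 19306 that met the same condition in the whole table. Of these, 160 lie on the short arm (up to ZNF337), 13 lie between the arms and 343 lie on the long arm (from HM13 on). The chromosome was chosen by its KO minus VC values, which were already known to be shifted, so the values of these genes in that contrast are a description, and no test of the chromosome as a whole is given.

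The samples were RNA from 143B, a human osteosarcoma cell line, which is a bone tumour line grown in culture. The 3 VC libraries came from cells that received a vector plasmid, and the 3 KO libraries from cells in which CNTNAP4 was deleted with a CRISPR/Cas9 knockout plasmid, with 48 h of transfection given for both groups. CNTNAP4 codes for a cell surface protein of the neurexin family that binds the bone growth factor NELL-1. The study grew its KO cells from single-cell colonies, so a KO library can carry features of 1 clone, and which clone each library came from was not stated. Nothing in the labels says that the libraries came from separately made lines, so every p-value below measures only the spread between these 6 samples.

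Human chromosome 20 has a short arm (20p) and a long arm (20q) joined at the centromere, a gene-poor region of repeated DNA. Neighbouring genes share a chromosome but mostly not a function. The long arm holds several genes of the mitotic spindle and the cell cycle, among them AURKA, TPX2, MYBL2 and E2F1, while the short arm holds the replication clamp gene PCNA and the bone growth factor gene BMP2. Osteosarcoma genomes are known for gains, losses and rearrangements of whole chromosome arms.

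CNTNAP4 itself had a value in 1 of the 6 libraries, VC replicate 3, so its level does not check the labels. The mesenchymal markers VIM, from 10.33 to 10.93 log2 signal, and SPARC, from 6.46 to 6.95, were present in every library, while the collagen gene COL1A2 lay between -5.72 and -4.59. The epithelial marker CDH1 had 1 value and the blood cell marker PTPRC lay between -7.12 and -4.35, but the epithelial marker EPCAM (0.84 to 1.79) and CD68 (4.43 to 6.46) were measured in all 6. Over the 18790 tested genes off chromosome 20, the median difference from the VC mean was -0.04 in KO replicate 1, -0.15 in KO replicate 2 and -0.15 in KO replicate 3. The median KO minus VC log2 difference of those genes was -0.12, and values for chromosome 20 are set against it.

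The order of the table was checked against RefSeq, where 502 of the 516 genes had a position on chromosome 20, 0 had one on another chromosome and 14 had none. In 3 cases a gene started before the one listed above it. By RefSeq type, 399 were protein coding, 86 were long non-coding RNAs (lncRNAs) and 10 were pseudogenes. A further 166 rows had some value but too few to be kept, with a median signal of -6.22 against 1.95 for the genes kept. Of the genes kept, 34 had fewer than 6 values. The lowest mean signal of a gene kept was -8.33, and the highest mean signal of a row left out was -1.51.

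A few promoters are shown because their genes stand at the places where the KO minus VC values change along the chromosome, or, for E2F1, because it is a cell cycle regulator of the lower stretch. Each runs from 250 bases before to 50 bases after the RefSeq start site in GRCh38.p14, written from 5′ to 3′ in the direction of the gene. Capitals mark matches on either strand to CCAAT (a box read by NF-Y), TTTGAA (the cell cycle homology element) and the E2F motif (TTTCGCGC or TTTGGCGC). In the fit to the mean of the KO libraries, ABHD12 (chr20:25390786-25391085, minus strand), a lipid hydrolase gene, is the last gene before the lower stretch, and GINS1 (chr20:25407423-25407722, plus strand), a subunit of the replication helicase, is the first in it. JPH2 (chr20:44187139-44187438, minus strand), a junctional membrane complex gene, and OSER1 (chr20:44210722-44211021, minus strand), an oxidative stress responsive gene, stand on either side of the next change, NCOA5 (chr20:46089913-46090212, minus strand), a nuclear receptor coregulator gene, opens the last stretch, and E2F1 lies at chr20:33686336-33686635, minus strand.
ABHD12: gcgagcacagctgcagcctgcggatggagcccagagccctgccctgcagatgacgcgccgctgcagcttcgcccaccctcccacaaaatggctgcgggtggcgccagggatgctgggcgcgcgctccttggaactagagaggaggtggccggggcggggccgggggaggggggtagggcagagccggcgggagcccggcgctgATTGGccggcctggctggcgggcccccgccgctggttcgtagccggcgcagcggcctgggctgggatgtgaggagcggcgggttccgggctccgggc
GINS1: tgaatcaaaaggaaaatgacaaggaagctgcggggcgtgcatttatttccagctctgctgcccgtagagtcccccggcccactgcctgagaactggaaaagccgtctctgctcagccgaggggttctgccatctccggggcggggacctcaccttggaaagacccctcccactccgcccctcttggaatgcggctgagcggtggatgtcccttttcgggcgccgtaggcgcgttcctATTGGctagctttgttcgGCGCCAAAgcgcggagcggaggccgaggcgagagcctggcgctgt
JPH2: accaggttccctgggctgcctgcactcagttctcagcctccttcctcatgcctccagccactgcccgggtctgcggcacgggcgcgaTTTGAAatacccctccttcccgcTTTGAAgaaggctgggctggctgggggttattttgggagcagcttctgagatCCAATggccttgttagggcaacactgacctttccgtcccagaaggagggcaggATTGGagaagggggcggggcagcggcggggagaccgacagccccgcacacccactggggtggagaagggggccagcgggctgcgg
OSER1: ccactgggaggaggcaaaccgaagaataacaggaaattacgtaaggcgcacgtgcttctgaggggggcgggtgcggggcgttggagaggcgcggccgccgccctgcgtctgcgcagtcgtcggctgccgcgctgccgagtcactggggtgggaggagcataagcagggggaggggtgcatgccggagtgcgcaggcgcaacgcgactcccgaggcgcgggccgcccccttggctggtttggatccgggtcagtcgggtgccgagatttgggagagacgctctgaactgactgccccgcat
NCOA5: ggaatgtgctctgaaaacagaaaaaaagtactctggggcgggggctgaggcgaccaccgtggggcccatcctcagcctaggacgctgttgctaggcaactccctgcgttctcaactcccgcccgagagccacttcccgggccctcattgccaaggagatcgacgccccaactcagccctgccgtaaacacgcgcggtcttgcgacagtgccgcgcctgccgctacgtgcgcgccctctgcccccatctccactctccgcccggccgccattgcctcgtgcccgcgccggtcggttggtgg
E2F1: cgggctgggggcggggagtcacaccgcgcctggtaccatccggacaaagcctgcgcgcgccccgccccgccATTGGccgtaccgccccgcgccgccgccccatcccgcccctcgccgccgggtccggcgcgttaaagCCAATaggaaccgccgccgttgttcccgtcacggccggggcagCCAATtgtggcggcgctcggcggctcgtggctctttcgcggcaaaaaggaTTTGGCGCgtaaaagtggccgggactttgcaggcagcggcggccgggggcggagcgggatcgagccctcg

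The promoter of GINS1 holds 1 CCAAT match and 1 E2F match, and that of E2F1 holds 3 CCAAT matches and 1 E2F match. ABHD12 holds 1 CCAAT match, JPH2 holds 2 CCAAT and 2 TTTGAA matches, and the OSER1 and NCOA5 windows hold none of these letters. The window of MYBL2, also a cell cycle regulator of the lower stretch, was searched as well and holds none. A RefSeq promoter was at hand for 360 of the 516 genes. Among them 30.8% held CCAAT, 8.06% held TTTGAA and 3.61% held the E2F motif, against 35.7%, 15.4% and 1.18% of all 27305 RefSeq promoters of the same length. The median GC content was 66.8% in the members and 58.3% in all promoters. The 360 belong to genes with a measured signal, 295 of them protein coding, while all promoters were taken without regard to expression or gene type. These differences are therefore not read as a trait of chromosome 20. By stretch, the protein-coding genes from C20orf96 to ABHD12 had 66.3% GC, those from GINS1 to JPH2 65.7%, those from OSER1 to LOC105372632 66.7% and those from NCOA5 to PCMTD2 70.0%. The KO minus VC medians of these stretches are given further on.

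The 2 arms differed in their medians. The median KO minus VC log2 difference was 0.02 for the 160 short arm genes, 0.14 above that of the genes on other chromosomes, and -0.43 for the 343 long arm genes, which set against those genes is a difference of -0.31. The 13 genes between the arms had a median of -0.47. On the long arm 246 of 343 genes (71.7%) were below 0, and on the short arm 78 of 160 (48.8%), beside 59.6% of the genes on other chromosomes. In bulk RNA, a change in the share of cells and a change in RNA per cell cannot be told apart.

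With limma across all tested genes and an adjusted p under 0.05, 161 long arm genes were lower and 21 higher in KO, while 18 short arm genes were lower and 31 higher. Over all tested genes, 19.8% of genes were lower and 13.1% higher by this rule. Among genes with 6 values, all 3 KO values lay under all 3 VC values for 185 of 320 long arm genes and 33 of 150 short arm genes, against 36.7% of all such genes. All 3 KO values lay above all 3 VC values for 43 and 53 genes respectively, against 22.6% of all. Since this contrast chose the chromosome, nothing is read from these counts. The counts also changed with the library left out, as did those over all tested genes, from 6354 to between 1223 and 8669. Without VC replicates 1, 2 and 3 and KO replicates 1, 2 and 3 in turn, the lower long arm genes numbered 58, 110, 49, 169, 140 and 86, and the higher long arm genes 7, 12, 5, 37, 17 and 8. In the same order the higher short arm genes numbered 10, 12, 7, 33, 21 and 9, and the lower short arm genes 0, 5, 1, 27, 10 and 1, with 18 lower at an unadjusted limma p under 0.05 without VC replicate 1. By the unadjusted limma p, the lower long arm genes varied little, at 162, 177, 164, 181, 171 and 167. With the libraries centred on their medians the split over all genes went from 2526 higher and 3828 lower to 3141 higher and 3066 lower.

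The long arm difference had nearly the same size in the 3 KO libraries. Relative to the genes on other chromosomes in the same library, the long arm median lay at -0.33 in KO replicate 1, -0.29 in KO replicate 2 and -0.30 in KO replicate 3. The short arm median lay at 0.18, 0.21 and 0.15. Each VC library, set against the other VC libraries in the same way, stayed between -0.04 and 0.02 on the short arm and between -0.04 and 0.02 on the long arm. The KO medians lay outside the VC medians on both arms, but since this contrast chose the chromosome, nothing is read from that. The same held for other chromosomes, among them 7, 8, 14 and 22, though not for chromosome 1. On chromosome 7 the KO medians were only -0.07, -0.05 and -0.09. The median SD of a long arm gene was 0.10 over the VC and 0.19 over the KO libraries.

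**Figure D1:**
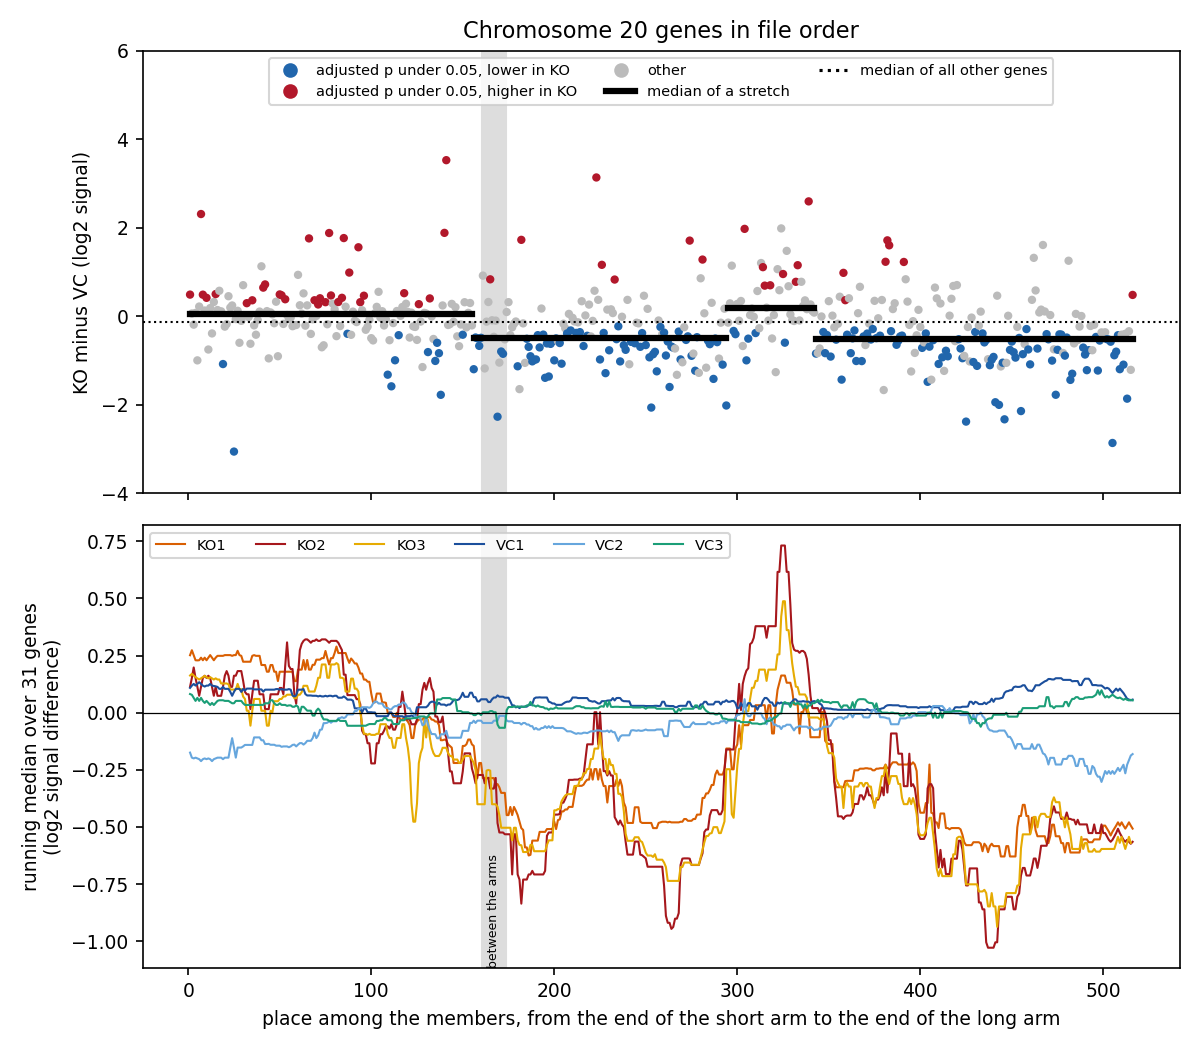
Top, KO minus VC difference in log2 signal (vertical axis) of the 516 genes in table order (horizontal axis), with the median of each of the 4 stretches as a black bar and the median of the 18790 other genes, -0.12, as a dotted line. Bottom, running medians over 31 genes for each KO library against the VC mean and each VC library against the other VC libraries; the KO lines lie above 0 at the start, under it from the end of the short arm on, and rise for the genes from OSER1 to LOC105372632.

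A piecewise constant fit along the order, with stretches of at least 15 genes, divided the chromosome into 4 stretches. The first ran from C20orf96 to ABHD12, with 155 genes and a median of 0.04. The second ran from GINS1 to JPH2, with 139 genes and a median of -0.50. The third ran from OSER1 to LOC105372632, with 48 genes and a median of 0.18, and the fourth from NCOA5 to PCMTD2, with 174 genes and a median of -0.51. In this fit the lower values therefore began at GINS1, the 156th gene, which starts at 25407673, still on the short arm and 4 genes before its last gene ZNF337. They reached the last genes of the long arm, with 1 stretch of 48 genes in between that stood 0.68 above the stretches beside it. The place of the first step is not exact. Fits to KO replicates 1, 2 and 3 alone put it at the 107th, 155th and 121st gene.

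Called lower were 13 of 155 genes in the first stretch, 74 of 139 in the second, 6 of 48 in the third and 89 of 174 in the fourth. These are 8.39%, 53.2%, 12.5% and 51.1% of each stretch, beside 19.8% of all tested genes. Called higher were 31, 7, 8 and 7 in the same order, or 20%, 5.04%, 16.7% and 4.02%, beside 13.1% of all, and nothing is read from either. Without VC replicate 3 the lower calls numbered 1, 18, 1 and 31, and without VC replicate 1 they numbered 0, 23, 1 and 35, with 13 of the first stretch at an unadjusted limma p under 0.05. They were also fewer without VC replicate 2 (3, 48, 2 and 63) and without KO replicate 3 (0, 35, 1 and 52, with 16 of the first unadjusted), and the first stretch had 22 without KO replicate 1 and 7 without KO replicate 2. The higher calls of the first stretch were 10, 12, 7, 33, 21 and 9 without VC replicates 1 to 3 and KO replicates 1 to 3, those of the second were 1, 2, 0, 12, 4 and 2, those of the third were 2, 4, 2, 15, 5 and 3, and those of the fourth were 4, 6, 3, 11, 8 and 3. For the second without VC replicate 3, 9 genes were higher at an unadjusted limma p under 0.05. By that unadjusted p, the lower genes of the second and the fourth numbered 76 and 91 without VC replicate 3, and 73 and 92 without VC replicate 1.

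Of the 4 stretches, the second and the fourth held their level in each KO library, at -0.40, -0.37 and -0.40 for GINS1 to JPH2 and -0.40, -0.37 and -0.35 for NCOA5 to PCMTD2 in KO replicates 1, 2 and 3, relative to the other chromosomes. The third differed more between KO libraries, at 0.14, 0.47 and 0.27. The first lay at 0.18, 0.23 and 0.19. In the VC libraries all 4 stretches lay between -0.05 and 0.03. The borders were placed on the mean of these same KO libraries, so nothing is read from how these medians compare.

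**Figure D2:**
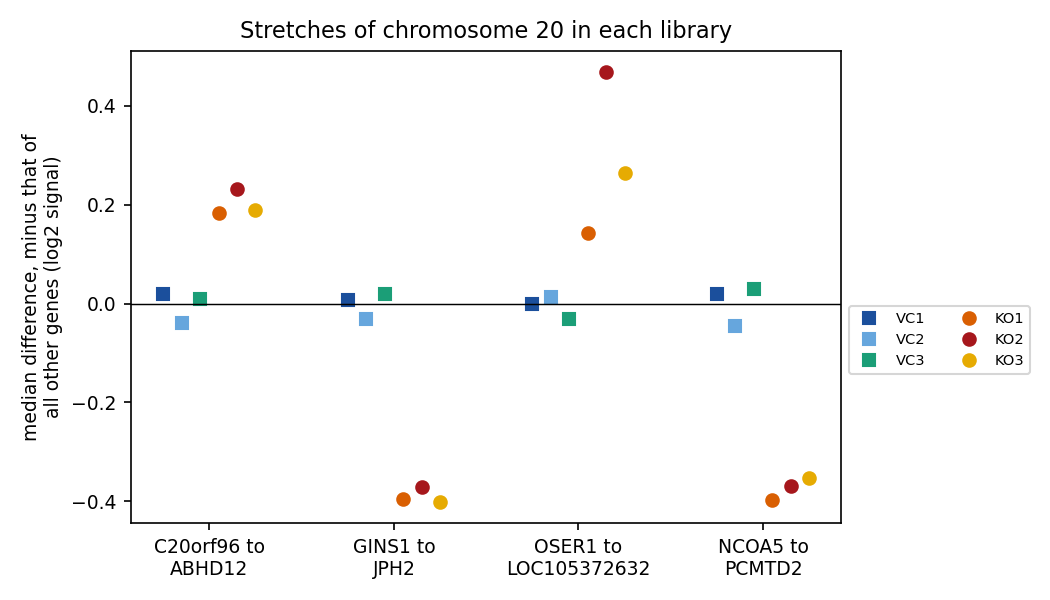
Median log2 difference of the genes of each stretch (horizontal axis) in each library, minus the same median over all genes on other chromosomes (vertical axis); squares are the 3 VC libraries, each set against the other VC libraries, and circles are the 3 KO libraries, each set against the VC mean. The second and the fourth stretch lie between -0.40 and -0.35 in the KO libraries, and the third spreads from 0.14 to 0.47. The stretches were fitted to the mean of these same KO libraries.

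Fitted one KO library at a time, the borders were placed differently. In KO replicate 1 the values stepped down at RRBP1, a ribosome binding protein gene that starts at 17613679, from a median of 0.23 to -0.25, and again at PFDN4, a prefoldin subunit gene at 54208087, to -0.54. No raised stretch was fitted between OSER1 and NCOA5 in that library. In KO replicate 2 the steps fell at ABHD12, OSER1-DT and NCOA5, with medians of 0.08, -0.52, 0.33 and -0.52 in turn. In KO replicate 3 there was a single step at LOC107985399, from 0.09 to -0.44. The first step thus fell on the short arm in all 3 KO libraries, but at the 107th, 155th and 121st gene of the order. None of the VC libraries had a step over all 516 genes.

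Among the 293 genes in the upper 50% of mean signal, whose replicates vary less, the first step came closer together. It fell at APMAP, which starts at 24962925, in KO replicates 1 and 2 and in the mean, and at ABHD12, which starts at 25294743, in KO replicate 3. The medians before and after it were 0.15 and -0.42 in the mean. Among these genes the stretch from OSER1 to LOC105372632 was no longer set apart in the mean, and in KO replicate 1 the genes from TOX2 to ZNF217 had a median of -0.14 between stretches at -0.43 and -0.56. Within this upper 50%, VC replicate 1 had a step at PPP1R3D, to 0.11, and VC replicate 2 had one at MTG2, to -0.16, both near the end of the long arm. The medians of the short and long arm in this upper 50% were 0.12 and -0.43, against -0.08 for the upper 50% of genes on other chromosomes.

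Values within the lower stretches were not even. In windows of 5 Mb of RefSeq position, the median was 0.25 for the 16 genes from TMEM230 to PLCB4, -0.50 for the 51 genes from LINC01597 to MYH7B and -0.54 for the 58 genes from TRPC4AP to DHX35. It was 0.01 for the 63 genes from KCNS1 to SNAI1, the window that holds much of the third stretch, and -0.24 for the 27 genes from UBE2V1 to DOK5. The lowest window was that of the 39 genes from FAM210B to CDH26, at -0.69, followed by -0.58 for the 70 genes from CDH4 to PCMTD2. The longest run of neighbours below 0 was 27 genes from MHENCR to MYT1, and the longest run above 0 was 8 genes from PLTP to LOC105372632. The longest runs of neighbours that were all called lower had 8 genes, and there were 3 of them, from PDRG1 to ASXL1, from COMMD7 to NECAB3 and from TPD52L2 to C20orf204.

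At the first border the change was not clean from gene to gene. Before PYGB, in order, ACSS1 differed by -0.42, VSX1 by 0.32, ENTPD6 by -0.25 and LOC105372579 by 0.08. Only ACSS1 of these was called (limma adjusted p 0.041), and it lost the call with any library left out. Past the border, LOC100134868 between the arms differed by 0.83 and HM13 by 0.095, although the 13 genes between the arms had a median of -0.47. PYGB, the brain form of glycogen phosphorylase, had log2 signals of 5.13, 4.98 and 5.13 in VC and 5.22, 5.51 and 5.40 in KO. Its next neighbour ABHD12 had 3.17, 2.91 and 3.05 in VC and 2.93, 2.76 and 2.82 in KO. The KO values of PYGB lay above the VC values, and those of ABHD12 overlapped them, with limma adjusted p of 0.0788 and 0.154.

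GINS1 had 4.16, 4.19 and 4.12 in VC and 3.46, 2.37 and 3.04 in KO, so all KO values were below, with KO replicate 2 the lowest. The log2 difference was -1.20 (SE 0.28), or 2.29-fold lower, with a limma adjusted p of 0.0306. The next genes, NINL, a centrosomal protein gene, and NANP, a sialic acid phosphatase gene, differed by -0.48 and -0.50 with adjusted p of 0.0179 and 0.023 by limma. ZNF337, a zinc finger gene at the end of the short arm, had 0.60, 0.51 and 0.46 in VC and -0.01, -0.00 and 0.11 in KO. These 4 genes lost the call when VC replicate 1, VC replicate 3 or KO replicate 3 was left out, except ZNF337 without KO replicate 3. The highest limma adjusted p was 0.0873 for GINS1 without VC replicate 1, and GINS1 and NANP also lost it without VC replicate 2, at 0.0828 and 0.0685, and NANP without KO replicate 2, at 0.0516.

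The second border lay between JPH2 and OSER1. JPH2 had 1.39, 1.22 and 1.27 in VC and 0.05, -1.47 and -0.77 in KO, a difference of -2.02 (SE 0.38) with a limma adjusted p of 0.0197. OSER1 had 2.88, 2.91 and 2.79 in VC and 2.81, 2.70 and 2.64 in KO, with overlapping groups and a difference of -0.14. MYBL2, a transcription factor of dividing cells that stands 2 places before JPH2, differed by -1.10 (limma adjusted p 0.0178), and between it and JPH2 the gene TOX2 overlapped between groups, at 0.17. JPH2 and MYBL2 lost the call without any of the 3 VC libraries or KO replicate 3, with limma adjusted p up to 0.0664 and 0.0651. Past the border, OSER1-DT, a divergent transcript of OSER1, had KO values of 1.04, 1.24 and 0.86 above its VC values of 0.72, 0.74 and 0.80. Whether reads were counted by strand was not stated, so reads of OSER1-DT and OSER1 may be mixed.

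The third border lay between LOC105372632 and NCOA5. SLC12A5, a potassium chloride cotransporter gene, differed by 0.12 with overlapping groups, and LOC105372632 differed by 0.08. NCOA5, next in order, had 4.73, 4.70 and 4.72 in VC and 4.07, 3.60 and 3.95 in KO. All KO values lay below, the difference was -0.84 (SE 0.14), and the limma adjusted p was 0.0148, rising to 0.0563 without VC replicate 1 and 0.0576 without VC replicate 3. The next genes CD40 and CDH22 had signals of -3.33 or lower and overlapping groups, and SLC35C2, a solute carrier gene after them, differed by -0.0066. ELMO2, an engulfment and motility gene 4 places on, had 3.28, 3.30 and 3.28 in VC and 2.96, 2.83 and 3.00 in KO.

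**Figure D3:**
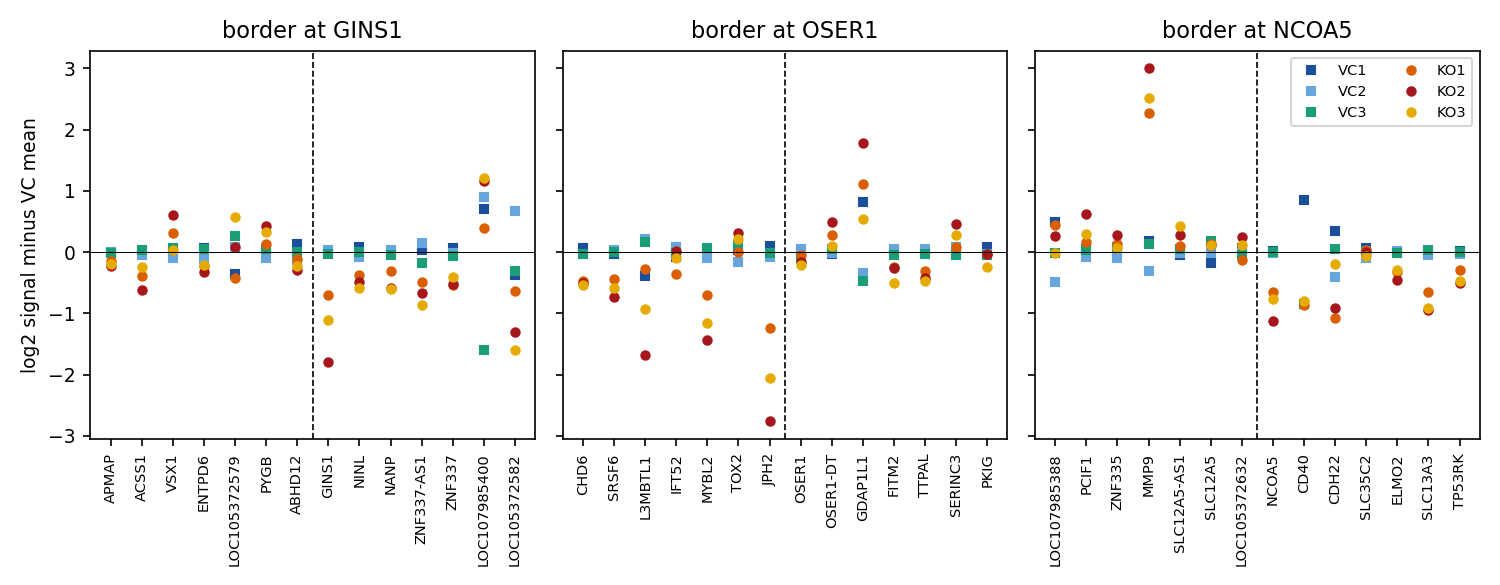
Log2 signal minus the VC mean (vertical axis) in each library for the 7 genes on either side of the 3 borders (dashed lines), in table order; squares are VC and circles are KO libraries. GINS1 and NCOA5 are the first genes after their borders and have all 3 KO values under all 3 VC values, while the genes after OSER1 include values on both sides of 0.

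The last gene of the long arm did not share the lower values. PCMTD2, a methyltransferase domain gene, had 2.30, 2.39 and 2.28 in VC and 2.72, 2.93 and 2.75 in KO. It rose by 0.48 (limma adjusted p 0.018) after the run of 27 genes below 0, and the call was lost without VC replicate 1 (0.0684), VC replicate 3 (0.071) or KO replicate 3 (0.0551). At the other end C20orf96, the first gene kept, had 2.20, 2.04 and 1.97 in VC and 2.55, 2.68 and 2.43 in KO. Its difference of 0.49 had a limma adjusted p of 0.025, which was 0.0842 without VC replicate 3, 0.0722 without VC replicate 2, 0.0567 without VC replicate 1 and 0.053 without KO replicate 3. HM13, a signal peptide peptidase gene and the first gene of the long arm, lay between 4.61 and 4.74 in VC and between 4.49 and 4.94 in KO.

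Cell division and DNA replication genes were the group with the lowest median on the chromosome. Of 20 genes tested, 15 were called lower, beside 19.8% of all tested genes, and the median was -0.79 against -0.13 for all tested genes. On the long arm 14 of 15 were called lower with a median of -0.84, beside 46.9% of all long arm genes. On the short arm 1 of 5 was, with a median of -0.45, although that arm as a whole had a median near 0. The long arm count was 7 without VC replicate 1 and 5 without VC replicate 3. On the short arm the call of GINS1 was lost without any VC library or KO replicate 3, and 3 genes were called without KO replicate 1.

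AURKA, the mitotic kinase of the centrosome, had 6.08, 6.16 and 6.04 in VC and 4.92, 4.28 and 4.63 in KO. TPX2, which binds Aurora A to the spindle, had 6.99, 7.03 and 7.04 in VC and 6.15, 5.69 and 5.83 in KO. E2F1, the transcription factor of S phase entry whose promoter is shown above, had 5.14, 5.01 and 5.14 in VC and 4.43, 3.71 and 3.93 in KO. In all 3 genes every KO value lay below every VC value, and KO replicate 2 was the lowest.

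AURKA fell 2.80-fold (log2 difference -1.48, SE 0.17, limma adjusted p 0.00952) and TPX2 fell 2.19-fold (-1.13, SE 0.13, adjusted p 0.00963), and both stayed under 0.05 with any library left out. E2F1 fell 2.10-fold (limma adjusted p 0.0182), but lost the call without any of the 3 VC libraries or KO replicate 3, at up to 0.0656. UBE2C, the ubiquitin-conjugating enzyme of the anaphase-promoting complex, lies inside the third stretch, with its higher median. It had 6.83, 6.87 and 6.79 in VC and 6.17, 6.35 and 6.17 in KO, a difference of -0.60 (limma adjusted p 0.0108), and stayed under 0.05 with any library left out. TOP1, which relaxes DNA during replication and transcription, had overlapping groups with a difference of 0.07.

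On the short arm PCNA had 7.18, 7.29 and 7.20 in VC and 7.05, 5.93 and 6.59 in KO, and the helicase gene MCM8 had 2.96, 3.06 and 2.92 in VC and 2.89, 2.22 and 2.47 in KO. The KO values lay below the VC values for both, but the limma adjusted p were 0.111 and 0.108. RefSeq promoters were at hand for 15 of these 20 genes: 8 hold CCAAT, 2 hold TTTGAA and 4 (MCM8, GINS1, E2F1 and RBL1) hold the E2F motif. Among the 360 promoters of the chromosome these shares were 30.8%, 8.06% and 3.61%, and among all promoters 35.7%, 15.4% and 1.18%. AURKA, TPX2 and UBE2C were not among the 15. With all 20 genes left out, the long arm median differed from the other chromosomes by -0.29. The fit then had 4 stretches, with the first step at LOC105372585, the 147th gene. This takes out only 15 of the 343 long arm genes, which can move a median little, so nothing is read from it.

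RNA processing and translation genes divided by arm. Of 17 on the long arm, 16 were called lower, with a median of -0.57. Among all long arm genes that share was 46.9%, and among all tested genes 19.8%. The median of the 8 on the short arm was 0.02, and those 8 lay between -0.24 and 0.21. The long arm count was 6 without VC replicate 1, 6 without VC replicate 3 and 8 without KO replicate 3.

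STAU1, a double-stranded RNA binding protein that carries mRNAs, had 5.90, 5.88 and 5.90 in VC and 5.38, 5.37 and 5.42 in KO. The groups were far apart beside their spread: it fell by 0.50 on the log2 scale (SE 0.06, limma adjusted p 0.00963) and kept an adjusted p of at most 0.0485. RPS21, a small ribosomal subunit gene, had 8.78, 8.67 and 8.63 in VC and 8.38, 8.42 and 8.41 in KO, and its limma adjusted p of 0.034 stayed under 0.05 only without KO replicate 1, and was up to 0.112. SNRPB, a core splicing factor gene on the short arm, had 8.40, 8.35 and 8.43 in VC and 8.64, 8.29 and 8.31 in KO. Its groups overlapped, and the sign of its difference of 0.02 was negative, at -0.09, without KO replicate 1.

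Transcription factor and chromatin genes had a median of -0.63, with 15 of 31 called lower and 1 higher. All but 1 of the lower genes lay on the long arm, where 14 of 27 were lower and the median was -0.65. That count was 9 without VC replicate 3, and 2 genes were higher without KO replicate 2. Of all long arm genes 46.9% were called lower, and of all tested genes 19.8%. The 14 of 27 are near the share of the arm, so nothing is read from them about this list. DNMT3B, a de novo DNA methyltransferase, had 2.70, 2.60 and 2.66 in VC and 1.56, 0.93 and 1.29 in KO, and fell 2.63-fold (limma adjusted p 0.00967, at most 0.0451 with a library left out). ASXL1, a Polycomb-associated chromatin regulator, had 4.22 in each VC library and 3.63, 3.38 and 3.53 in KO.

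CEBPB, a bZIP transcription factor of stress and inflammation, was the exception. It had 4.67, 4.42 and 4.61 in VC and 6.12, 6.68 and 6.05 in KO. It rose 3.28-fold (limma adjusted p 0.00912, at most 0.043 with a library left out) within the stretch from NCOA5 to PCMTD2. On the short arm the acetyltransferase gene KAT14 had 2.42, 2.42 and 2.50 in VC and 1.78, 1.16 and 1.42 in KO, with a limma adjusted p of 0.0155 that rose to 0.0599 without VC replicate 3, 0.0567 without VC replicate 1, 0.0545 without KO replicate 3 and 0.0505 without VC replicate 2.

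Signalling genes on the 2 arms differed in sign. The 8 on the short arm had a median of 0.27, with 4 higher and 2 lower, and the 14 on the long arm a median of -0.36, with 7 lower and 1 higher. Over each whole arm, 19.4% of short arm genes were higher and 46.9% of long arm genes lower. Over all tested genes these shares were 13.1% and 19.8%. The 7 of 14 are near the share of the arm, and nothing is read from them about this list. Without VC replicate 3 each of the 7 lower long arm genes lost the call. They numbered 1 without VC replicate 1, 2 without VC replicate 2 and 2 without KO replicate 3, and the higher gene, PREX1, was called only without KO replicate 1. Both lower short arm genes lost the call without any VC library or KO replicate 3, and 1 did so without KO replicate 2.

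TRIB3, a pseudokinase induced in the stress response, had 3.26, 3.03 and 3.23 in VC and 5.08, 5.95 and 5.41 in KO. BMP2, the bone morphogenetic ligand, had 0.82, 0.65 and 0.86 in VC and 2.34, 2.82 and 2.46 in KO. The KO values lay well above the VC values, and the genes rose 4.96-fold and 3.40-fold (limma adjusted p 0.00815 and 0.00632, at most 0.0412 and 0.036 with a library left out). The 14-3-3 gene YWHAB, inside the third stretch, had 7.25, 7.34 and 7.26 in VC and 6.92, 6.66 and 6.76 in KO, with a limma adjusted p of 0.0177 that was up to 0.0654 without a VC library and 0.0616 without KO replicate 3. GNAS, the stimulatory G protein alpha subunit, had 7.60, 7.51 and 7.64 in VC and 7.17, 7.28 and 7.22 in KO. The adjusted p of GNAS by limma was 0.0233, with up to 0.088 without a VC library and 0.0743 without KO replicate 3.

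Of the gene lists, that of matrix and adhesion genes held the largest differences in both directions, though genes outside the lists differed more. Their median was -0.55, with 9 of 20 called lower and 4 higher, and the 9 lower genes all lay on the long arm. On the long arm 9 of 17 were lower and 3 higher. Beside these stand 46.9% lower and 6.12% higher over the whole long arm, and 19.8% and 13.1% over all tested genes. The 9 of 17 are near the share of the arm, and nothing is read from them about this list. The lower count was 3 without VC replicate 1, VC replicate 3 or KO replicate 3, and 6 without VC replicate 2. The higher count was 2 without any VC library or KO replicate 3 and 6 without KO replicate 1. CDH4, or R-cadherin, had 2.72, 2.58 and 2.57 in VC and 0.88, 0.46 and 0.52 in KO, and fell 4.01-fold (SE of the log2 difference 0.13, limma adjusted p 0.00571). EMILIN3, an extracellular matrix glycoprotein gene, had 2.52, 2.20 and 2.51 in VC and 1.45, 0.50 and 1.03 in KO.

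MMP9, a gelatinase that degrades basement membrane, had 0.94, 0.44 and 0.88 in VC and 3.03, 3.75 and 3.27 in KO. It rose 6.04-fold (log2 difference 2.60, SE 0.24, limma adjusted p 0.00762). It stands in the third stretch, 4 genes before NCOA5. SDC4, a heparan sulfate proteoglycan gene of the same stretch, had 4.60, 4.66 and 4.58 in VC and 5.10, 5.55 and 5.26 in KO. THBD, or thrombomodulin, on the short arm, had 0.29, -0.09 and 0.18 in VC and 1.57, 2.43 and 2.04 in KO, 3.69-fold higher. CDH4, MMP9 and THBD kept limma adjusted p of at most 0.0452 with a library left out, while EMILIN3 (up to 0.0656) and SDC4 (up to 0.0689) lost the call without VC replicate 1, VC replicate 3 or KO replicate 3, and SDC4 also without VC replicate 2 (0.0552).

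Protein handling and trafficking genes had a median of -0.15, close to that of all genes, but this median joins arms with opposite signs. The 7 on the short arm had a median of 0.14 with 3 higher, and the 21 on the long arm a median of -0.36 with 12 lower. For the whole arms the shares were 19.4% higher and 46.9% lower, and for all tested genes 13.1% higher and 19.8% lower. The lower long arm genes numbered 4 without VC replicate 1, 3 without VC replicate 3 and 5 without KO replicate 3, and the 3 higher short arm genes lost the call without any VC library or KO replicate 3, and 2 of them without KO replicate 2. PSMA7, a core proteasome subunit, had 9.16, 9.09 and 9.09 in VC and 8.70, 8.40 and 8.52 in KO. Its limma adjusted p of 0.0156 was 0.0614 without VC replicate 1, 0.0601 without VC replicate 3 and 0.056 without KO replicate 3. PRNP, the prion protein gene, had 6.45, 6.50 and 6.39 in VC and 6.63, 6.95 and 6.83 in KO, all of the latter higher, with a limma adjusted p of 0.0489 that stayed under 0.05 only without KO replicate 1.

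Metabolic genes had the highest median of the 7 lists with many measured genes, at 0.04. Of 10 on the short arm 6 were higher and 1 lower (median 0.32), and of 15 on the long arm 5 were lower (median -0.12). In the whole short arm 19.4% were higher and 11.3% lower, and in the whole long arm 46.9% were lower. All tested genes had 13.1% higher and 19.8% lower. The higher short arm genes numbered 3 without VC replicate 1, VC replicate 2 or KO replicate 3 and 2 without VC replicate 3, and the lower long arm genes numbered 1, 2, 1 and 1 without VC replicates 1, 2 and 3 and KO replicate 3. Without KO replicate 1, 4 long arm genes were called higher. SMOX, spermine oxidase, had 3.35, 3.10 and 3.19 in VC and 4.65, 5.31 and 4.96 in KO. GPCPD1, a glycerophosphocholine phosphodiesterase, had 0.50, 0.54 and 0.61 in VC and 2.28, 2.82 and 2.20 in KO. Both were higher in every KO library, by 3.38-fold and 3.68-fold (limma adjusted p 0.00847 and 0.00789, at most 0.0415 and 0.041 with a library left out).

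The gene clusters of the chromosome that are active in few tissues, the beta defensins, cystatins, WAP domain, BPI fold and semenogelin genes, were mostly silent. Of 54 rows with symbols that begin with DEFB, CST, WFDC, BPIF or SEMG, 42 had no value and 4 could be tested. The WAP domain genes PI3 and SLPI have other symbols and were not in this list. They differed by -0.27 and 1.20, and neither was called. WFDC3 had -2.31, -5.02 and -2.76 in VC and -1.35, -1.31 and -1.48 in KO, and WFDC2 had -1.36, -0.69 and -0.24 in VC and 0.14, 0.61 and 0.13 in KO. Both lie in the third stretch, with limma adjusted p of 0.087 and 0.0534. CST3, or cystatin C, had 4.37, 4.13 and 4.42 in VC and 4.48, 4.56 and 4.49 in KO.

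**Figure D4:**
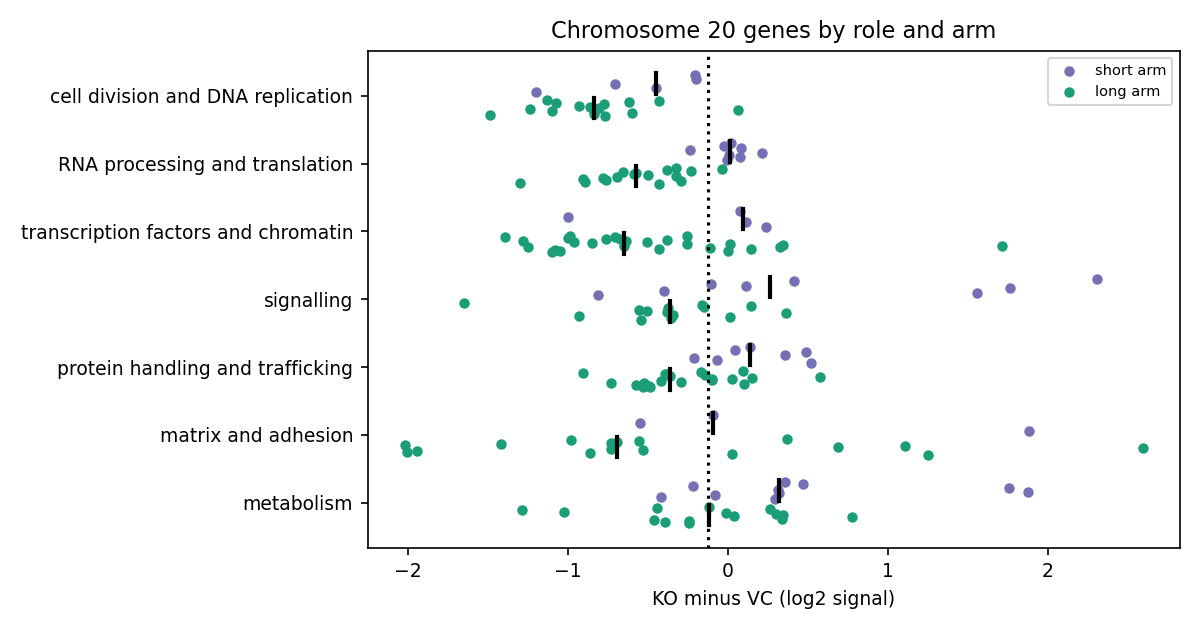
KO minus VC difference in log2 signal (horizontal axis) of each gene of 7 lists (vertical axis), short arm genes in purple and long arm genes in green, with black bars at the medians and a dotted line at the median of genes on other chromosomes, -0.12. The long arm median lies below the short arm median in each of the 7 lists, from -0.84 in cell division to -0.12 in metabolism. The lists are parts of the same arms, so nothing is read from that order.

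The long arm median lay below the short arm median in all 7 of those lists. The 269 protein-coding genes of the long arm had a median of -0.44 and the 130 of the short arm 0.06. The 57 lncRNAs of the long arm had -0.35 and the 21 of the short arm -0.19, with a larger spread between replicates (median SD over the VC libraries of 0.34 and 0.42). Some of these lncRNAs are named as antisense to a coding gene, and the pseudogenes of the FRG1 family between the arms are near-identical copies, so how reads were divided among them is uncertain.

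The lowest long arm gene among those with strong signal was SOGA1, a microtubule-associated protein gene, with 2.43, 2.32 and 2.50 in VC and 0.84, -0.41 and 0.63 in KO. It fell 4.18-fold, with a limma adjusted p of 0.015 that was 0.0555 without VC replicate 1 and 0.0576 without VC replicate 3. Larger differences occurred at low signal. CD93, next to THBD on the short arm, had -5.71, -4.95 and -4.72 in VC and -1.86, -1.47 and -1.46 in KO, and SIRPB1 had -4.95, -6.27 and -4.81 in VC and -7.75, -8.76 and -8.70 in KO. The readthrough gene MMP24-AS1-EDEM2 differed by 3.14 and MMP24OS by 1.16, and since they share sequence their reads cannot be told apart.

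Set beside the other 21 autosomes, each taken whole and not by arm, none had a lower median than the long arm, and 1, chromosome 22 at 0.29, had a higher median than the short arm. The nearest to the long arm were chromosome 14, at -0.39 with 45.9% of its 571 genes called lower, and chromosome 8, at -0.33 with 34.9% of 662. On the long arm of chromosome 20 that share was 46.9%, and on the short arm 11.3%. Taken whole, the 516 genes of chromosome 20 had a median of -0.25 with 35.3% called lower, so chromosomes 14 and 8 had lower medians. The chromosome was chosen for this shift, so its rank is a description, and the differences from chromosomes 14, 8 and 22 were not tested.

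**Figure D5:**
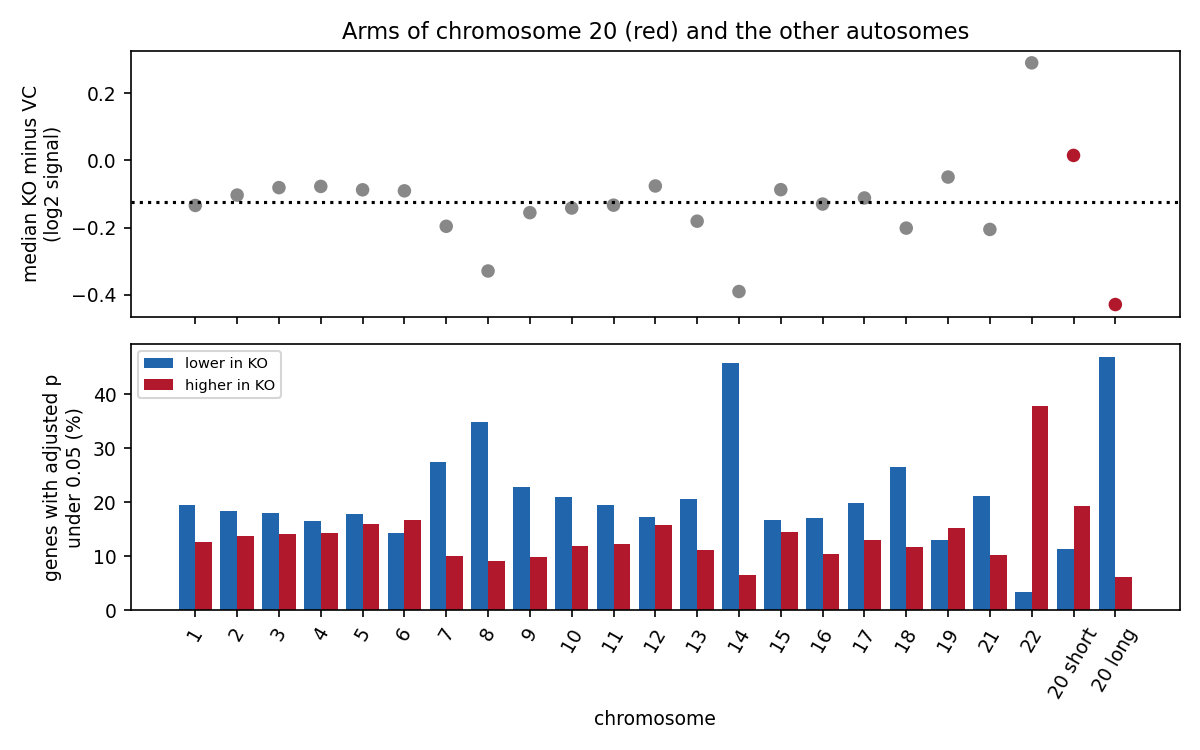
Top, median KO minus VC difference in log2 signal for each of the other autosomes, taken whole (grey), and the arms of chromosome 20 (red), with a dotted line at -0.12. Bottom, percentage of genes with an adjusted p under 0.05 that were lower (blue) or higher (red) in KO; chromosome 14 and the long arm of chromosome 20 have the largest lower shares, at 45.9% and 46.9%.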

How the data were processed

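RNA of 3 VC and 3 KO libraries of 143B cells was sequenced by the authors from stranded mRNA libraries. The submitters' processing notes name CASAVA, STAR, Partek and GRCh38.p13, and the study's methods name CLC Genomics and Partek. The table deposited by the authors holds log2 signals per gene symbol, with blanks where no value was given, and its sorted values are nearly identical between libraries, as they are after quantile normalization. The linear unit behind the log2 scale and the read depth were not given in the sources used here, so no counting error can be stated, and between 20333 and 21041 genes had a value per library. Samples were grouped by their titles.

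KO minus VC was fitted with limma 3.58.1 in R 4.3.3 (lmFit and eBayes, no trend, two-sided) on the 19306 genes measured in 2 or more libraries per group, and p-values were adjusted by Benjamini-Hochberg over all of them, with 0.05 as threshold. A fold change is 2 to the power of the log2 difference. Stretches were found by least absolute deviations along the table order, with at least 15 genes a stretch and at most 6 stretches. The limma fit and the search for stretches were tested on simulated data, as a check of the code only. The limma simulation had independent noise and few changed genes, unlike these libraries. Nothing is read from it about the calls or borders here. Positions and promoters are from RefSeq, GRCh38.p14. Where a symbol had several promoters the first listed was used.

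The members, gene lists and tests were chosen with earlier results of these data known. Named genes were the 3 on either side of each border, the 5 lowest and 5 highest well measured genes of each arm, the 3 strongest of each list, the ends of the arms, and SOGA1, CDH4 and STAU1. TPX2, E2F1, UBE2C, MCM8, ASXL1, ELMO2, CD93, SIRPB1, MMP24-AS1-EDEM2 and the first genes of stretches in single libraries were added after their values were seen. CSTF1 was not counted among the cystatins. Alternatives were other gene filters, median centring, 1 added to the linear signal, other variance estimates, a replicate block and leaving out each library. Leaving out the cell division genes was added after seeing the data, as was the comparison of the third stretch with those beside it. Same-numbered VC and KO libraries did not deviate together, with correlations between -0.03 and 0.03 over 17698 genes for all pairs.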

Additional observations from a re-analysis of the deposited data

How the results depend on the processing

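The sign of both arm shifts was the same under each alternative tried, but their size was not. The short arm shift of 0.14 was 0.21 in the upper 50% of genes by signal, 0.18 in genes with 6 values, 0.0252 with 1 added to the linear signal, and 0.12 to 0.17 with a library left out. The long arm shift of -0.31 was -0.35 in the upper 50% and -0.13 with 1 added. The long minus short arm difference of -0.44 was -0.55, -0.49 and -0.16 in the first 3 of these settings and -0.50 in protein-coding genes, and the third stretch stood 0.27 instead of 0.68 above its neighbours with 1 added. The fit had 2 stretches in the upper 50%, with least squares and without VC replicate 1, and 2 to 4 with any library left out. Its first step moved from the 156th gene to the 185th (PDRG1) with 1 added and to the 395th (SALL4) with least squares, and lay between the 134th and 156th with a library left out. Adding 1 shrinks the differences of weak genes by construction. For the other moves the cause was not tested.

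Genes called numbered 6354 over the table, 49 on the short arm and 182 on the long arm, and with a library left out they numbered 1223 to 8669, 8 to 60 and 54 to 206. With the replicate number as a block they numbered 1533, 9 and 64, but the numbers do not pair the libraries, and no library correlated above 0.03 with its own number. Of the 63 genes named by the rule, without those added after their values were seen, 35 were called, 11 of them in all 6 fits with a library left out. Differences near 0 changed sign in 6 genes. With a library left out, SNRPB ranged from -0.0913 (without KO replicate 1) to 0.0823, NOP56 from -0.13 to 0.0843 (without KO replicate 2), LOC105372579 from -0.17 (without KO replicate 3, and -0.0997 without VC replicate 1) to 0.3256, ROMO1 from -0.0816 to 0.0391 (above 0 without VC replicates 1 and 3 and KO replicate 1), LOC105372632 from -0.0045 (without KO replicate 2) to 0.18, and COL9A3 from -0.0881 (without VC replicate 2, and -0.0629 without KO replicate 2) to 0.1059. With median-centred libraries NOP56 was 0.0679 and ROMO1 0.0754.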

Other observations

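Rows with values in one group only were few. LOC105372529 (-6.73, -7.71 and -6.82) and LOC105372539 (-8.30, -8.28 and -8.34) on the short arm and LOC105372685 (-4.59, -6.10 and -6.24) on the long arm had log2 signals in the 3 VC libraries and none in KO, and 0 rows had 3 KO values and no VC value. In all, 36 rows, these 3 among them, had at least 2 VC values and under 2 KO values, and 26 rows the reverse.

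The KO libraries differed among themselves in places. In the third stretch the median of KO replicate 2 minus KO replicate 1, gene by gene, was 0.27, against -0.10 for genes on other chromosomes, while from GINS1 to JPH2 it was -0.13 and from NCOA5 to PCMTD2 -0.02. For KO replicate 3 minus KO replicate 1 the same medians were 0.02, -0.10 and -0.06, with -0.10 elsewhere.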
